A study of Homo sapiens with 4 samples.

Results

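The genes described here encode the surface molecules by which natural killer (NK) cells and T cells recognise and hold on to a target cell. They are 10 genes chosen by name among the 58812 genes in the files: the NKG2D ligands MICA, MICB, ULBP1, ULBP2 and ULBP3, the DNAM-1 ligands PVR and NECTIN2, and the adhesion molecules ICAM1, VCAM1 and CD58. RNA was sequenced from wild type A549, an epithelial line established from a human lung carcinoma, 24 hr after transfection with 1 µg of plasmid. The SAMD9 group (n = 2 libraries) received a SAMD9 expression plasmid that adds a Myc-DDK tag, and the empty vector group (n = 2 libraries) received pCMV6-Entry, the plasmid without an insert. The labels do not say whether the 2 libraries of a group came from separate cultures, so the spread behind each p-value may be technical.

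NKG2D is an activating receptor of NK cells and of some T cells. Its ligands are distant relatives of MHC class I that healthy epithelium carries at low levels and that cells display under stress, infection or transformation. DNAM-1 (CD226) is a further activating receptor, which binds PVR and NECTIN2; the inhibitory receptor TIGIT competes for the same ligands. ICAM1 binds the leukocyte integrin LFA-1, VCAM1 binds the integrin VLA-4, and CD58 binds CD2, and these contacts hold the lymphocyte to its target.

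Library totals ran from 29301854 to 39670083 counts. SAMD9 itself had 220123 and 184350 counts in the SAMD9 libraries, against 444 and 400 in the empty vector libraries. Of 9 epithelial markers, KRT7, KRT8 and KRT18 were abundant, whereas KRT19, NKX2-1 and SFTPC had at most 10 counts in any library. SFTPB had at most 38 counts, and EPCAM lay between 5.55 and 6.90 CPM after TMM normalisation, edgeR's scaling between libraries. On that scale the epithelial list summed to 7894 to 8103 CPM with SAMD9 and 6278 to 7082 CPM with empty vector. Most of that sum came from KRT7, KRT8 and KRT18. Of 8 leukocyte markers, 7 had at most 20 counts in every library, the exception being CD14, and PTPRC, which encodes CD45, had 0 and 3 counts with SAMD9 and 0 and 0 with empty vector. The summed level of the leukocyte list was 2.48 to 2.95 CPM with SAMD9 and 2.12 to 3.07 CPM with empty vector. Of 13 receptor genes that NK cells and other leukocytes use to bind these ligands, 11 had at most 20 counts in every library and CD2, NCR1 and NCR3 had 0 in all; this list summed to 3.70 to 3.86 CPM with SAMD9 and 3.04 to 3.91 CPM with empty vector.

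With SAMD9, 7 of the 9 genes that could be tested rose and the other 2, ULBP1 and PVR, fell (edgeR quasi-likelihood F-test, adjusted p below 0.05 by Benjamini-Hochberg over 19814 genes). Across all genes tested, 27.5% were called, 15.3% higher and 12.2% lower. The changes were of very different size. ICAM1 rose 11.8-fold, MICB 3.70-fold, NECTIN2 2.58-fold and ULBP3 2.38-fold, and ULBP1 fell to 0.487 of its empty vector level. ULBP2, CD58 and MICA rose by 1.68-fold, 1.52-fold and 1.19-fold, and PVR stood at 0.880 of its empty vector level. VCAM1, the remaining gene, had too few counts to test. The median log2 fold change of the 9 tested genes was 0.75, against -0.01 for all 19814. In all 9 the SAMD9 libraries lay outside the range of the empty vector libraries, which was also true of 62.0% of all genes tested. In a bulk library a change in the fraction of cells expressing a gene and a change in RNA per cell cannot be told apart.

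**Figure D1:**
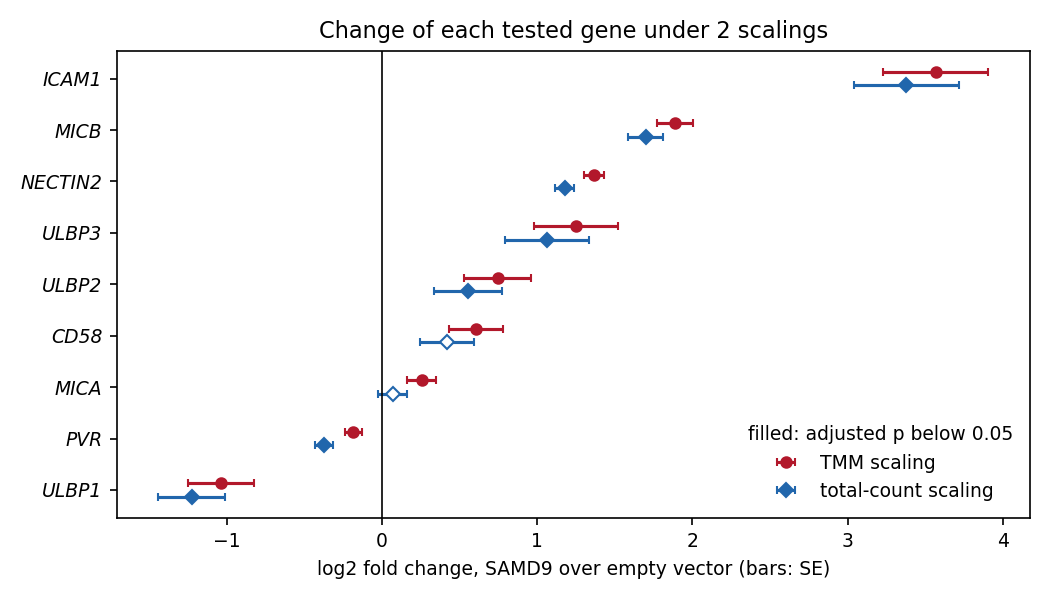
The x axis gives the log2 fold change of SAMD9 over empty vector with its SE, for each of the 9 tested genes under TMM scaling (circles) and under total-count scaling (diamonds), with filled symbols for an adjusted p below 0.05. ICAM1 lies farthest right at 3.57 and ULBP1 farthest left at -1.04, and the open diamonds of MICA and CD58 mark calls that depend on the scaling.

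Scaling matters for the small changes. Under total-count scaling the median log2 value of all genes lay -0.19 from its place under TMM, with 1974 genes higher and 5653 lower, against 3038 and 2420 with TMM. MICA was then at 0.07 (edgeR adjusted p = 0.618, SE 0.09) and CD58 at 0.42 (edgeR adjusted p = 0.0630, SE 0.17), so neither was called. The other 7 calls kept their direction and their side of the threshold under that scaling.

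Levels per kilobase of the listed gene length set the genes in order. With SAMD9, PVR averaged 108 ± 2.96 and NECTIN2 108 ± 5.32 CPM per kilobase (SD, n = 2), and their library ranges overlapped. MICA followed at 18.3 ± 2.06 and MICB at 13.8 ± 1.13. ULBP3 at 4.86 ± 1.42, CD58 at 4.72 ± 0.0235 and ULBP2 at 3.86 ± 0.0658 formed the next tier, in which the range of ULBP3 overlapped those of CD58 and ULBP2. ICAM1 at 1.399 ± 0.127 and ULBP1 at 1.19 ± 0.399 also overlapped, and VCAM1 came last at 0.0320 ± 0.0201. With empty vector, PVR stood alone at 123 ± 1.404 CPM per kilobase, ahead of NECTIN2 at 41.8 ± 1.55, MICA at 15.3 ± 0.0439, MICB at 3.71 ± 0.224 and CD58 at 3.10 ± 0.405. ULBP1, ULBP2 and ULBP3 then followed between 2.48 and 2.02 with overlapping neighbours, and ICAM1 was far below them at 0.118 ± 0.0528. ULBP1 was the ninth of the 10 with SAMD9 and the sixth with empty vector, and ULBP3 was the fifth with SAMD9 and the eighth with empty vector.

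**Figure D2:**
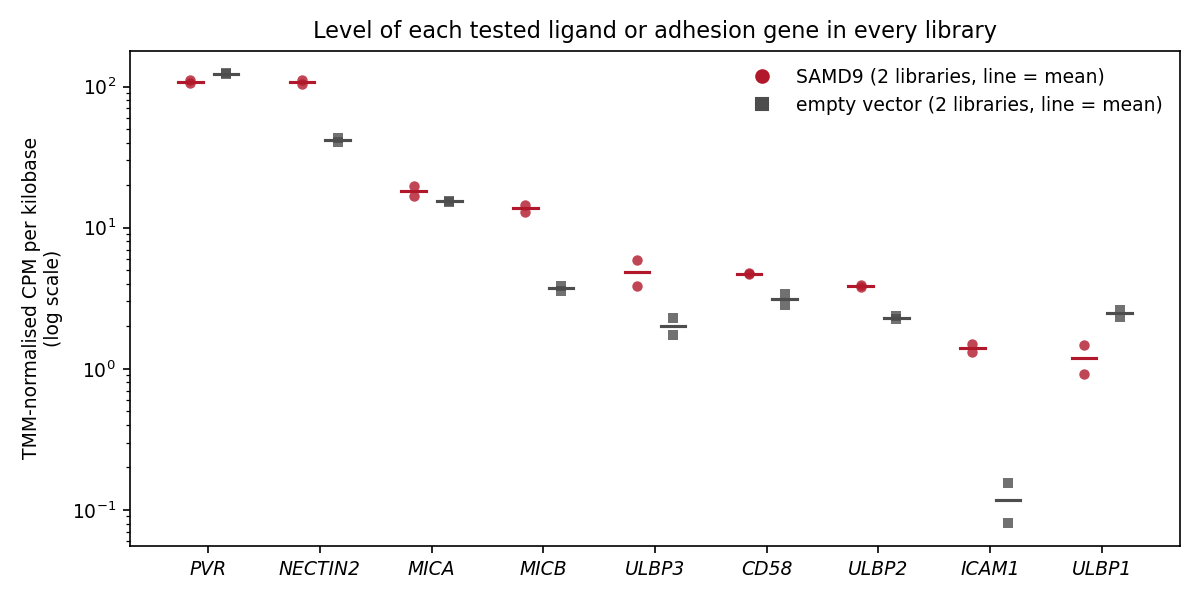
The y axis gives TMM-normalised CPM per kilobase on a log scale for the 9 tested genes; each point is a library and each line a group mean. NECTIN2 reached the level of PVR in the SAMD9 libraries, both averaging 108, and ICAM1 shows the widest gap between the groups; VCAM1, with 0 counts in both empty vector libraries, cannot be drawn on this axis.

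MICA and MICB are neighbouring transmembrane NKG2D ligands on chromosome 6 (GRCh38; MICA from 31399784 to 31415315 and MICB from 31494881 to 31511124, both on the plus strand), and their fold changes were of different size. MICB (ENSG00000204516) had 36.3 and 40.7 CPM in the SAMD9 libraries, against 10.8 and 9.95 CPM in the empty vector libraries. Its log2 fold change was 1.89 (edgeR adjusted p = 6.0e-12, SE 0.11), and both SAMD9 libraries were well above both empty vector libraries. MICA (ENSG00000204520) had 47.1 and 40.2 CPM in the SAMD9 libraries, against 36.7 and 36.5 CPM in the empty vector libraries, a log2 fold change of 0.26 (edgeR adjusted p = 0.0422, SE 0.09). SAMD9 replicate 1 was the highest of the 4. Without it, MICA was at 0.14 (edgeR adjusted p = 0.533), and the call was also lost with the DESeq2 test (adjusted p = 0.0819).

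The ratio of these paralogs within a library is free of any scaling between libraries. MICB stood at 0.656 and 0.864 of MICA in the SAMD9 libraries, per kilobase, against 0.252 and 0.232 in the empty vector libraries. The ratio was thus 3.11-fold higher with SAMD9, and the groups did not overlap, although an exact permutation test of 2 libraries against 2 cannot give a two-sided p below 0.333 and gave that value. MICA shares 8.77% of its transcript 31-mers (all stretches of 31 bases) with MICB, and MICB shares 7.48% of its own with MICA. Reads lying wholly within shared stretches could not be assigned to either gene by sequence, and their number was not examined. MICA also overlaps the transcript HCP5 over 62 exonic bases on the same strand; HCP5 had 62 and 42 counts with SAMD9 and 10 and 9 with empty vector.

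Promoters of this pair are shown because MICB had the larger fold change although the upstream sequences are similar. Each runs from 250 bases before to 50 bases after the RefSeq gene start on the plus strand (GRCh38.p14), at chr6:31403345-31403644 for MICA and chr6:31497895-31498194 for MICB. Both windows lie inside the gene spans of the count files, whose annotation has starts farther upstream. Capitals mark GAANNTTC, the core of a heat shock element.
MICA: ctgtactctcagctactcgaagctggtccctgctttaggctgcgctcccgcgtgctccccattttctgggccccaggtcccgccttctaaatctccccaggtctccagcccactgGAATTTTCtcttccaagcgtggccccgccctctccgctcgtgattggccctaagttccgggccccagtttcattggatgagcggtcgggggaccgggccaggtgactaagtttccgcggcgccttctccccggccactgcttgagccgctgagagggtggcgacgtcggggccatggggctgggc
MICB: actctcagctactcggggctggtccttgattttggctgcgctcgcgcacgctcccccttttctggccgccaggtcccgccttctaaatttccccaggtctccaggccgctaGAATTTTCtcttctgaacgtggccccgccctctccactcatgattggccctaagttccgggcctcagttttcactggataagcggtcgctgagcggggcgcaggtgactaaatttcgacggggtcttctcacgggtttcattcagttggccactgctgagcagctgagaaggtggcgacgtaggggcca
In a global alignment 78.2% of 316 columns were identical. The capital letters fall 135 bases before the start in MICA and 139 bases before it in MICB, and 6.77% of 35116 promoters of the same length hold this pattern. Neither window held TTCNNNGAA, the interferon-gamma activated site (GAS), or the interferon-stimulated response element (ISRE), read here as GAAA, any 2 bases and GAAA; these occur in 7.66% and 3.57% of the promoters. Patterns were searched on both strands, and a missing pattern says only that those letters are not in this window.

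The ULBP genes encode smaller NKG2D ligands on the other arm of chromosome 6 and moved in opposite directions. ULBP1 (ENSG00000111981, 149964007 to 149973710) had 4.64 and 2.86 CPM in the SAMD9 libraries, against 8.25 and 7.35 CPM in the empty vector libraries. It fell by 1.04 on the log2 scale (edgeR adjusted p = 0.00067, SE 0.21), and both SAMD9 libraries were below both empty vector libraries. ULBP2 (ENSG00000131015, 149942000 to 149949235) had 5.15 and 5.27 CPM in the SAMD9 libraries, against 3.20 and 3.02 CPM in the empty vector libraries, a log2 fold change of 0.75 (edgeR adjusted p = 0.0124, SE 0.22). ULBP3 (ENSG00000131019, minus strand, 150063150 to 150069095) had 3.81 and 5.80 CPM in the SAMD9 libraries, against 1.73 and 2.27 CPM in the empty vector libraries, a log2 fold change of 1.25 (edgeR adjusted p = 0.00115, SE 0.27).

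Relative to the mean, the 2 SAMD9 libraries differed more for ULBP1 and ULBP3 than for MICA, MICB or ULBP2. SAMD9 replicate 2 had the lowest ULBP1 and the highest ULBP3 of the 4 libraries. Per kilobase, ULBP3 stood at 2.61 and 6.44 times ULBP1 in the SAMD9 libraries, against 0.666 and 0.982 times in the empty vector libraries. ULBP1 was thus the higher of the pair with empty vector and ULBP3 with SAMD9, in both libraries of each group (exact permutation test, two-sided p = 0.333, the smallest possible). The size of that difference depends on the library: the ratio was higher with SAMD9 by 2.34 on the log2 scale, by 2.99 without SAMD9 replicate 1 and by 1.69 without SAMD9 replicate 2. ULBP1 shares 12.6% of its 31-mers with RAET1K and 3.73% with ULBP3, and ULBP3 shares 16.2% of its own with RAET1K and 12.1% with ULBP1. Reads lying wholly within such shared stretches could not be assigned by sequence, and how many did so was not examined. None of the patterns searched was found in the promoter windows of ULBP1, ULBP2 or ULBP3.

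Of the NKG2D ligand genes outside the 10, RAET1L, also called ULBP6, had a larger log2 fold change than any of the 9 tested genes. It had 479 and 424 counts in the SAMD9 libraries, against 8 and 11 counts in the empty vector libraries, a log2 fold change of 5.54 (edgeR adjusted p = 5.4e-14, SE 0.26). RAET1L shares 41.8% of its 31-mers with ULBP2, and ULBP2 shares 41.7% of its own with RAET1L, so the division of reads between them is uncertain. Their ratio per kilobase was 2.66 ± 0.222 with SAMD9 and 0.0947 ± 0.0205 with empty vector (SD, n = 2). RAET1E (0.23, SE 0.30, edgeR adjusted p = 0.643) and RAET1G (0.53, SE 0.30, edgeR adjusted p = 0.212) did not pass, and are named here only to complete the family.

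Summed per kilobase, the 8 NKG2D ligand genes reached 54.9 ± 0.561 CPM per kilobase with SAMD9 and 28.1 ± 0.131 with empty vector (SD, n = 2), a fold of 1.96, or 1.72 under total-count scaling. The make-up of that sum shifted. MICA supplied 36.2% and 30.5% in the SAMD9 libraries, against 55.0% and 54.4% in the empty vector libraries. The share of MICB was 23.8% and 26.3% with SAMD9 and 13.8% and 12.6% with empty vector. RAET1L supplied 17.5% and 19.9% with SAMD9 and 0.679% and 0.867% with empty vector. ULBP1 moved the other way, to 2.71% and 1.65% with SAMD9, against 9.38% and 8.31% with empty vector.

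**Figure D3:**
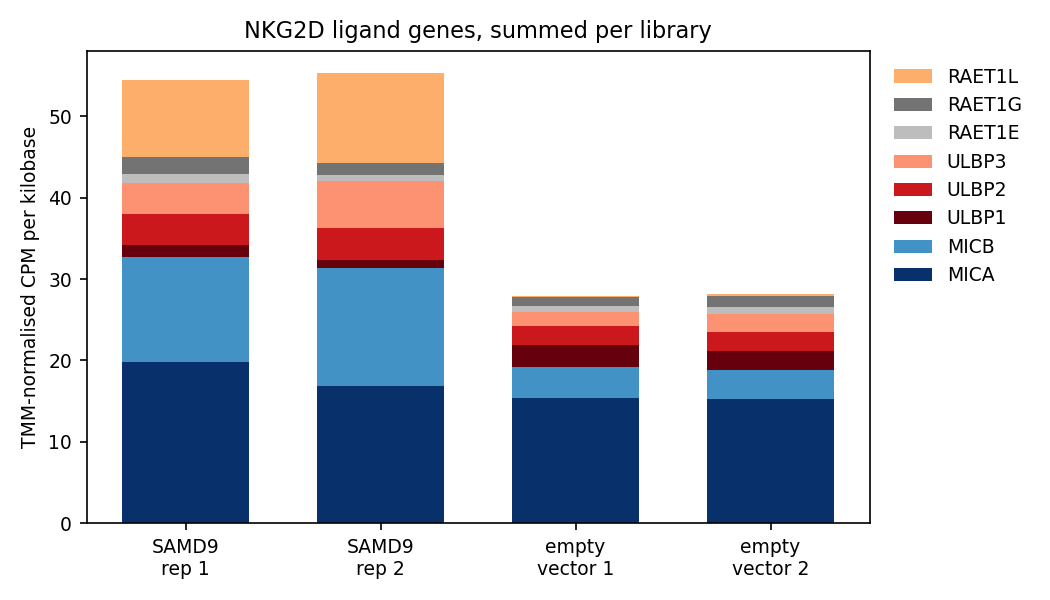
Stacked bars give TMM-normalised CPM per kilobase of the 8 NKG2D ligand genes in each library, SAMD9 libraries on the left. MICA made up 54.4% or more of the bar in the empty vector libraries and 36.2% or less in the SAMD9 libraries, where MICB and RAET1L took larger shares.

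PVR (CD155, the poliovirus receptor) and NECTIN2 (CD112) are nectin-family adhesion proteins encoded close together on chromosome 19, and both bind DNAM-1 and TIGIT. NECTIN2 (ENSG00000130202, 44846175 to 44889228, plus strand) had 389.5 and 418 CPM in the SAMD9 libraries, against 152 and 161 CPM in the empty vector libraries. It rose by 1.37 on the log2 scale (edgeR adjusted p = 3.0e-14, SE 0.06), the lowest p among the 9 tested genes. PVR (ENSG00000073008, 44643798 to 44663583, plus strand) had 389 and 374 CPM in the SAMD9 libraries, against 437 and 429.8 CPM in the empty vector libraries, a log2 fold change of -0.18 (edgeR adjusted p = 0.0163, SE 0.06). The groups did not overlap for either gene, but the PVR call was lost without SAMD9 replicate 1 (edgeR adjusted p = 0.0934) or SAMD9 replicate 2 (0.289).

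Within a library, NECTIN2 stood at 0.941 and 1.05 of PVR per kilobase with SAMD9, against 0.328 and 0.351 with empty vector. The ratio was 2.93-fold higher with SAMD9 and did not overlap between the groups (exact permutation test, two-sided p = 0.333, the smallest possible). Overlap with other genes was small: PVR shares 121 exonic bases with CEACAM19 on the same strand, which is 3.44% of its length. The NECTIN2 window held TGACGTCA, the cyclic AMP response element, 1 base after the gene start, and 1.85% of the promoters hold it.

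**Figure D4:**
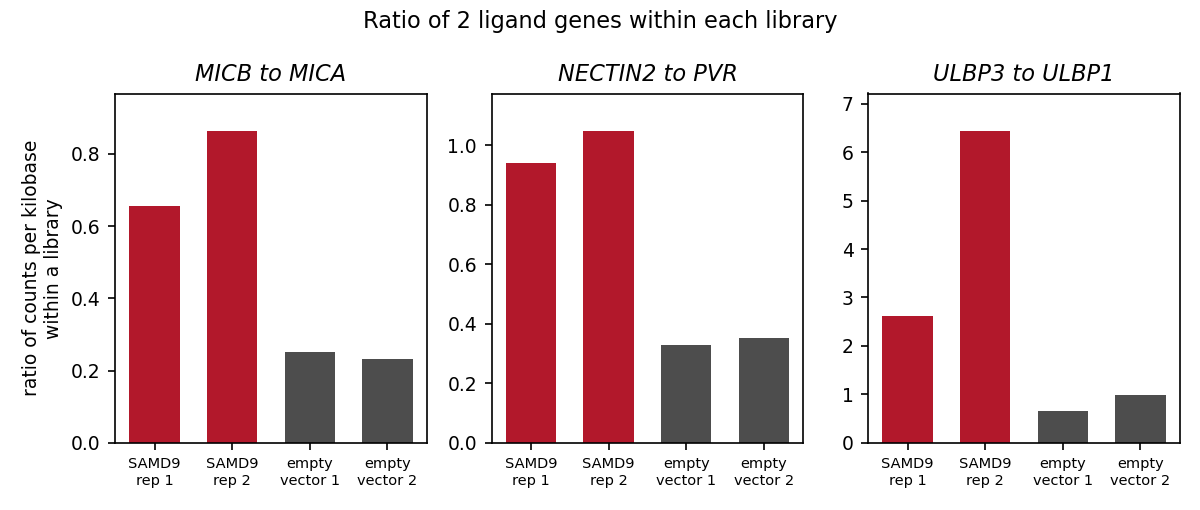
Bars give the ratio of counts per kilobase within each library for 3 pairs of ligand genes, SAMD9 libraries on the left. Each ratio was higher in both SAMD9 libraries than in both empty vector libraries, by 3.11-fold for MICB to MICA, 2.93-fold for NECTIN2 to PVR and 5.07-fold for ULBP3 to ULBP1, the last of which moved most when a SAMD9 library was left out.

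Of 7 other nectins and nectin-like molecules listed, 6 were tested, CADM4 rose and NECTIN1 fell, and the list's median log2 fold change was 0.09. These counts are near the shares over all genes tested, 15.3% higher and 12.2% lower. NECTIN1, a herpesvirus entry receptor, had a log2 fold change of -0.35 (edgeR adjusted p = 0.0119, SE 0.10), and its call was lost without SAMD9 replicate 2 (edgeR adjusted p = 0.233) or empty vector replicate 2 (0.105). CADM4 was at 0.31 (edgeR adjusted p = 0.0426, SE 0.11) and lost its call with DESeq2 (adjusted p = 0.0899), under total-count scaling, without a filter, or without empty vector replicate 1 or either SAMD9 library. AFDN, the gene of afadin, which ties nectins to the actin cytoskeleton, was at 0.19 (edgeR adjusted p = 0.0519, SE 0.07), and at -0.0022 under total-count scaling. It was called higher without empty vector replicate 1 (0.24, edgeR adjusted p = 0.00897).

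ICAM1 showed the largest fold change of the tested 9. ICAM1 (ENSG00000090339, chromosome 19, 10270835 to 10286615, plus strand) had 181 and 158 counts in the SAMD9 libraries, against 18 and 10 counts in the empty vector libraries. These are 5.19 ± 0.470 CPM with SAMD9 and 0.437 ± 0.196 CPM with empty vector (SD, n = 2), and the log2 fold change was 3.57 (edgeR adjusted p = 1.9e-08, SE 0.34). Even so, its level per kilobase with SAMD9 stayed below that of every other tested gene but ULBP1. An antisense transcript, ICAM4-AS1, covers 22.0% of the exonic length of ICAM1, but it had 0 and 0 counts with SAMD9 and 2 and 0 with empty vector. The strand setting of the counting is not known here, so reads from that stretch cannot be told apart.

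VCAM1 (ENSG00000162692, chromosome 1, 100719742 to 100739045, plus strand) was close to the limit of detection. It had 4 and 8 counts in the SAMD9 libraries and 0 and 0 counts in the empty vector libraries. Set against a floor of 3 counts over the group, VCAM1 gave a fold of 3.93 with SAMD9. That value rests on the observed counts and is not a lower confidence limit. The exact 95% Poisson interval on its 12 SAMD9 counts runs from 6.20 to 20.96 and covers counting error at most. That interval takes each count as independent, but 72.9% of counts from 1 to 20 were even, so it may be too narrow. VCAM1 did not pass the filter on low counts, and with no filter the edgeR adjusted p was 0.202.

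The promoters of ICAM1 and VCAM1 are shown because NF-kB and interferon-activated factors are known to bind them when cytokines induce these genes. The windows are chr19:10270870-10271169 and chr1:100719492-100719791 (RefSeq, GRCh38.p14, plus strand). The ICAM1 window lies inside the counted gene span, which starts at 10270835. Capitals mark GGNNNTTCC, a simplified form of the NF-kB site, on either strand, and in ICAM1 also TTCNNNGAA, the GAS pattern.
ICAM1: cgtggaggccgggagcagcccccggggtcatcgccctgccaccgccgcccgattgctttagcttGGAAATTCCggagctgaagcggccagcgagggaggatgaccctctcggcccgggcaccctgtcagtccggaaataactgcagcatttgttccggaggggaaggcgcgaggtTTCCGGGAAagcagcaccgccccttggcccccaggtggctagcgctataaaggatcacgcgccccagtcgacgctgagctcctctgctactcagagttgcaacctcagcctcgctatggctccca
VCAM1: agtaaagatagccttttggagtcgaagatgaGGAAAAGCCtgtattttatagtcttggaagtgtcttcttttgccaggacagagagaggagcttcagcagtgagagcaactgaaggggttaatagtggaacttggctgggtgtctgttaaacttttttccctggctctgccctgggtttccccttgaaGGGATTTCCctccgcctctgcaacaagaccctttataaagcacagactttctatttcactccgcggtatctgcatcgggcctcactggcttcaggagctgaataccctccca
The NF-kB pattern began 186 bases before the start in ICAM1, where these letters match the pattern on either strand, and 62 bases and 219 bases before the start in VCAM1. The GAS pattern began 75 bases before the start of ICAM1 and did not overlap the other. An ISRE pattern on the minus strand began 15 bases before the start of VCAM1. The NF-kB pattern is common: 20.1% of the 35116 promoters hold it, as do 4 of the 10 genes here (ICAM1, VCAM1, PVR and CD58), of which PVR fell. Among the 10, ICAM1 alone held the GAS pattern. Outside the 10, a window of RAET1E, which was not called, also held it. The window of RAET1L, which rose, held none of the patterns searched. The part of these patterns in the changes was not tested.

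CD58 (LFA-3; ENSG00000116815, chromosome 1, 116514535 to 116571039, minus strand) had 8.39 and 8.45 CPM in the SAMD9 libraries, against 6.04 and 5.02 CPM in the empty vector libraries. It rose by 0.61 on the log2 scale (edgeR adjusted p = 0.0110, SE 0.17), with no overlap between the groups. Without empty vector replicate 2, the lowest of the 4, the call was lost (0.48, edgeR adjusted p = 0.0698), as under total-count scaling. No other gene in GENCODE 29 shares its 31-mers.

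On the list of other leukocyte adhesion molecules, those tested had smaller log2 fold changes than ICAM1. The adhesion molecule CEACAM1 was listed with the ligands of inhibitory NK cell receptors instead. It was chosen after its value was seen and rose by 5.01 (edgeR adjusted p = 2.1e-20, SE 0.11), more than ICAM1. Of the 16 on the adhesion list, 10 were tested, 4 rose and 0 fell (15.3% and 12.2% over all genes tested). The list's median log2 fold change was 0.19. Under total-count scaling 2 rose and 2 fell. CD47, the "do not eat me" signal read by macrophages, rose by 1.33 (edgeR adjusted p = 1.3e-11, SE 0.08). CD99, which acts in leukocyte passage between cells, rose by 0.37 (edgeR adjusted p = 0.000146, SE 0.07) and the neural adhesion gene L1CAM by 0.42 (edgeR adjusted p = 0.00652, SE 0.11), a call lost under total-count scaling. Of the other ICAM genes, ICAM3 and ICAM4 had 0 counts in all 4 libraries, and ICAM2 had 0 and 0 counts with SAMD9 and 2 and 1 with empty vector. ICAM5, named to complete that family, had 29 and 39 counts with SAMD9, against 30 and 18 with empty vector (log2 fold change 0.50, edgeR adjusted p = 0.535). The P-selectin gene SELP also had 0 counts throughout. Endothelial identity markers were low as well, 6 of 8 having at most 20 counts in every library. The summed level of that list was 26.3 to 26.9 CPM with SAMD9 and 20.9 to 21.1 CPM with empty vector, of which EGFL7 made up most. Of 7 fibroblast markers, 6 had at most 20 counts in every library and COL1A1 rose (log2 fold change 1.60); the list summed to 6.06 to 6.18 CPM with SAMD9 and 1.76 to 2.87 CPM with empty vector. The part of these markers in the changes of the ligand genes was not tested.

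Genes known to induce ICAM1 and VCAM1 were mostly higher, and their part in the rise of ICAM1 was not tested. Of 18 transcription factors, cytokines and cytokine receptors listed, 16 were tested, 14 rose and 1 fell (15.3% and 12.2% over all genes tested). The 1 that fell was the TNF receptor gene TNFRSF1A (chosen after its value was seen). The list's median log2 fold change was 1.09. The 1 gene called lower lost its call without SAMD9 replicate 2 or empty vector replicate 2. IRF1, which activates interferon-responsive promoters, rose by 4.48 (edgeR adjusted p = 5.2e-23, SE 0.07), and IRF2 by 2.73 (edgeR adjusted p = 4.2e-17, SE 0.09). IFNG, the gene of interferon gamma, a known inducer of ICAM1, had 0 counts in all 4 libraries. TNF, named after its value was seen, had 97 and 83 counts with SAMD9, against 10 and 9 with empty vector.

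A list drawn up for ligands of other activating NK cell receptors held 11 genes, among them the 3 RAET1 genes above. It also held CLEC2D (log2 fold change 0.10, edgeR adjusted p = 0.785, SE 0.21), whose NK cell receptor CD161 is inhibitory. Of the 11, 10 were tested, 4 rose and 0 fell (15.3% and 12.2% over all genes tested). The list's median log2 fold change was 0.28. Under total-count scaling 2 rose and 2 fell. CLEC2B, the ligand of NKp80, rose by 1.88 (edgeR adjusted p = 6.8e-09, SE 0.17). BAG6, a chaperone that can act as a ligand of NKp30, rose by 0.25 (edgeR adjusted p = 0.00283, SE 0.06), and its call was lost under total-count scaling or without SAMD9 replicate 1. CD48, a ligand of the NK receptor 2B4 that is typical of blood cells, had 4 and 0 counts with SAMD9 and 0 and 0 with empty vector, so the groups overlapped at 0. Ligands of inhibitory NK cell receptors rose in 8 of 9 tested cases (15.3% over all genes tested), with a median log2 fold change of 3.49. HLA-C and HLA-B, ligands of killer immunoglobulin-like receptors, rose by 3.58 (edgeR adjusted p = 1.3e-21, SE 0.07) and 4.75 (edgeR adjusted p = 8.5e-21, SE 0.10), and HLA-E, the ligand of NKG2A, by 3.31 (edgeR adjusted p = 6.7e-21, SE 0.07). The listed span of HLA-C, 31268749 to 31357158, covers most of HLA-B, 31353872 to 31357188, on the same strand. How reads divided between HLA-B and HLA-C was not examined. Per kilobase, HLA-E stood at 9.39 and 12.1 times MICA in the SAMD9 libraries, against 1.29 and 1.26 times in the empty vector libraries.

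**Figure D5:**
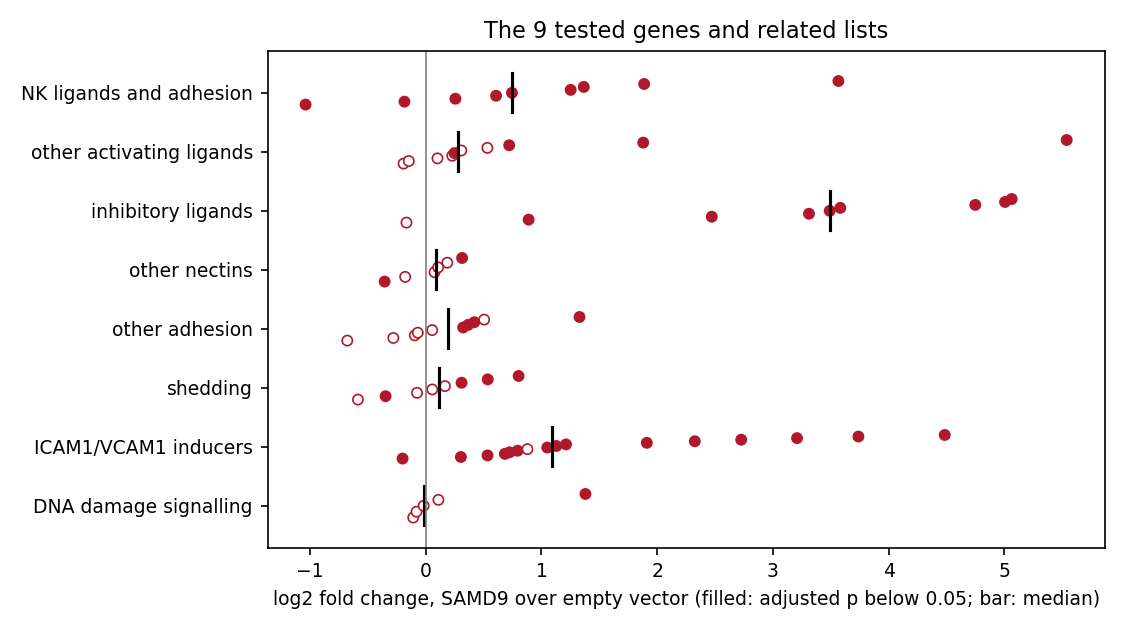
Each point is a tested gene, placed by its log2 fold change of SAMD9 over empty vector; the top row holds the 9 tested ligand and adhesion genes and the others the 7 related lists, filled points have an adjusted p below 0.05 and bars are medians. The inhibitory ligands have the rightmost median at 3.49, the ligand and adhesion genes stand at 0.75, and the nectins, shedding genes and DNA damage genes lie near 0.

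MICA, MICB and the ULBP proteins can be cut from the cell surface by metalloproteases, which lowers recognition by NK cells. The 11 genes listed for shedding were proteases, their partners and the protease inhibitors TIMP1 and TIMP3. Of these, 8 were tested, 3 rose and 1 fell (15.3% and 12.2% over all genes tested). The 1 that fell was RHBDF1, which was chosen after its value was seen. The list's median log2 fold change was 0.11. Without SAMD9 replicate 1, 0 were called lower. RHBDF2, which encodes iRhom2, the escort of the sheddase ADAM17, rose by 0.80 (edgeR adjusted p = 1.0e-08, SE 0.07), and ADAM17 itself rose by 0.54 (edgeR adjusted p = 1.2e-05, SE 0.08). PDIA6, a disulphide isomerase that assists MICA shedding, rose by 0.31 (edgeR adjusted p = 0.000702, SE 0.06), but was not called under total-count scaling (0.12, edgeR adjusted p = 0.142).

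DNA damage signalling is known to raise NKG2D ligands in other settings. Of 5 genes of that signalling tested, 1 rose and 0 fell (15.3% and 12.2% over all genes tested), with a median log2 fold change of -0.02. RNA levels of these genes do not measure the activity of the signalling, and its part in the ligand changes was not tested. CHEK2, the gene of the checkpoint kinase CHK2, had 742 and 685 counts with SAMD9, against 258 and 286 with empty vector, a rise of 1.38 (edgeR adjusted p = 2.5e-08, SE 0.13). E2F1 was at 0.11 (edgeR adjusted p = 0.283, SE 0.07) and ATM at -0.11 (edgeR adjusted p = 0.358, SE 0.08). Under total-count scaling E2F1 was at -0.08 and 2 of these genes, ATM among them, were called lower.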

How the data were processed

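Counts per gene were analysed for 2 SAMD9 and 2 empty vector libraries of rRNA-depleted total RNA (KAPA RiboErase, per the labels' protocols), grouped by their titles. The authors deposited raw counts, with CPM and RPKM values computed from them; CPM equalled counts over the library total and RPKM equalled CPM per kilobase, and neither was tested. Per the submitters' processing notes, STAR 2.5.1a and featureCounts 1.4.6-p5 were used on GRCh38; the sources used here do not give the strand setting or annotation release. Of counts from 1 to 20, 72.9% were even, against 49.7% above 1000, so intervals on low counts may be too narrow.

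Symbols matched 54836 of 58812 IDs. Counts were tested with edgeR 4.0.16 (R 4.3.3; filterByExpr, minimum count 10 and total 15; TMM; quasi-likelihood test, no covariate), checked on simulated data, with DESeq2 1.42.0 as an alternative. SE is the log2 fold change over the root of F. Levels are TMM-normalised CPM. Replicates differed by more than sampling noise (chi-square per degree of freedom 5.00 with SAMD9 and 9.35 with empty vector). Genes outside the 10 were named as the 3 lowest p of each list plus those with 0 counts in a group; 1 gene that this rule names is not reported here. Members and lists were chosen with earlier results of these data known. Promoters are from RefSeq (GRCh38.p14) and transcript 31-mers from GENCODE 29; all 10 genes matched. Other scalings, no filter, a replicate block and leaving out each library were also run.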

Additional observations from a re-analysis of the deposited data

How the results depend on the processing

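ICAM1, MICB, NECTIN2, ULBP1, ULBP2 and ULBP3 kept their direction and their side of the threshold under every alternative run, and MICA, PVR and CD58 kept their direction only. ULBP2 came near the threshold under total-count scaling (edgeR adjusted p = 0.0479) and with the DESeq2 test (adjusted p = 0.0394). None of the alternatives changed how reads shared between ULBP2 and RAET1L were divided. MICA was at 0.0686 under total-count scaling, 0.26 with DESeq2 and 0.25 with the replicate number as a block (adjusted p = 0.0555), and between 0.14 and 0.37 with a library left out. PVR ranged from -0.21 to -0.15 and CD58 from 0.48 to 0.75 with a library left out, and CD58 was at 0.42 under total-count scaling. Of the ligand and adhesion genes, 5 to 7 were called higher over all alternatives, and 1 or 2 lower with a library left out. Over all genes, total-count scaling gave 1974 higher and 5653 lower (25.9% of calls higher, against 55.7%), and 1466 (without SAMD9 replicate 2) to 2279 lower with a library left out.

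Under total-count scaling the related lists gave 2 higher and 2 lower (other activating ligands), 1 lower (inhibitory ligands), 0 higher (nectins), 2 higher and 2 lower (adhesion), 2 lower (shedding) and 2 lower (DNA damage). Nectins had 0 higher with DESeq2 or no filter. With a library left out, 0 to 1 were lower for other activating ligands, 0 to 1 higher and 0 to 1 lower for nectins, 0 to 1 lower for shedding and 0 to 1 lower for inducers. AFDN was at -0.0022 and E2F1 at -0.0788 under total-count scaling. The causes were not tested. Same-numbered replicates did not deviate together (correlation 0.00307 over 13397 genes), so the numbers are not taken as pairs; with the block 2914 genes were higher and 2330 lower, and MICA was the one ligand or adhesion gene whose call changed. Depth limits VCAM1, whose fold against the floor was 3.45 under total-count scaling and 3.93 with DESeq2 size factors.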

Other observations

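CD226, which encodes DNAM-1, the receptor of PVR and NECTIN2, gave a low signal in these epithelial cells. It had 4 and 12 counts in the SAMD9 libraries, against 29 and 38 counts in the empty vector libraries, a log2 fold change of -2.01 (edgeR adjusted p = 0.0269, SE 0.67). The gene was chosen after its values were seen, and 11 of the 13 receptor genes on its list had at most 20 counts in every library.

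The genes whose levels over the 4 libraries lay closest to those of a ligand gene were taken for the 3 with the lowest p. Closeness was the Euclidean distance between log2(CPM + 0.5) values centred over the 4 libraries. For NECTIN2 these were RNF114 (0.0349) and TNFAIP8 (0.0357), for MICB they were MASTL (0.0281) and PABIR3 (0.0833), and for ICAM1 they were ENSG00000225963 (0.0841) and KLF4 (0.0864). MASTL had 171 and 188 CPM in the SAMD9 libraries, against 51.0 and 47.1 CPM in the empty vector libraries. The fold changes of such genes need not be alike: KLF4 was at a log2 fold change of 2.56 and ICAM1 at 3.57, and the 0.5 added to CPM compresses the difference of a gene as low as ICAM1.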
